A study of Mus musculus with 10 samples.

Results

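The repressive histone mark H3K27me3 was compared between embryoid bodies (EBs) of 3 mouse embryonic stem (ES) cell lines, XT67E1, LF2 and E14. The 3 libraries were chosen by their labels, as the H3K27me3 libraries of EBs, out of 10 libraries in the series. They were made by chromatin immunoprecipitation and sequencing (ChIP-seq), with an H3K27me3 antibody credited to T. Jenuwein. EBs are clumps of differentiating cells, grown here for 10 days after removal of LIF, the cytokine that keeps ES cells undifferentiated. The labels give XT67E1 the strain C3H/Pgk*129 and both LF2 and E14 the strain 129/Ola. Of these lines, E14 is male and the others are female, which is background and not from the labels. Undifferentiated cells of the same 3 lines, grown with LIF on gelatin, gave 3 more H3K27me3 libraries, and XT67E1 EBs and undifferentiated XT67E1 cells gave 2 libraries of H3K4me3, a mark of active promoters. Each line is represented by 1 library per condition and mark, so no difference between lines has a replicate check and no p-value is given. What belongs to the line, to its strain or sex where these differ, and to the individual EB culture cannot be told apart. EBs hold many cell types, and in such bulk samples a higher share of marked cells and more mark per cell cannot be told apart.

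As background, H3K27me3 is placed by the EZH enzymes of Polycomb repressive complex 2 and is bound by CBX proteins of Polycomb repressive complex 1. In ES cells it covers promoters rich in the dinucleotide CG, above all those of transcription factors of development, and many of these promoters carry H3K4me3 too, a state called bivalent. During differentiation, genes of the pluripotent state can gain the mark, and genes of a lineage lose it in the cells that express them.

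The deposited lists held 8380007 reads for XT67E1 EBs and 4531733 reads each for LF2 EBs and E14 EBs, of which 7952736, 4309553 and 4420494 fell on chromosomes 1 to 19. Reads were counted in 247240 autosomal bins of 10 kb (mm9) and scaled to autosomal reads. The median bin held 28 reads in XT67E1 EBs, 15 in LF2 EBs and 15 in E14 EBs, and a level is given below as times this median or as RPM, reads per 1000000 autosomal reads. The undifferentiated LF2 library stood apart, with 7.64% of its bins at 3 or more times the median, against 3.30% in XT67E1 and 2.46% in E14 undifferentiated cells. Intervals are exact binomial 95% intervals of the ratio and cover counting error only.

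No annotation of mm9 was used here. Named genes were assigned to bins from general knowledge of their mm9 positions and were not looked up. RefSeq for GRCm38.p6 lists each on the chromosome named here. The sequences below are the promoters, 250 bases before to 50 bases after the start site, of genes on which the comparison turns. Hoxd13 is a body-patterning transcription factor of a cluster marked in the EBs of all 3 lines, Pou5f1 (Oct4) is a core pluripotency factor, Fgf4 is a growth factor secreted by ES cells, and Cdkn2a encodes the cell-cycle inhibitors p16Ink4a and p19Arf. They are credited to RefSeq, build GRCm38.p6, read 5′ to 3′ on the gene's strand, with every CG in capitals. All 4 genes matched the table. It lists 2 promoters each for Pou5f1, of which the first is shown, and Cdkn2a.
Hoxd13, chr2:74667975-74668274, plus strand: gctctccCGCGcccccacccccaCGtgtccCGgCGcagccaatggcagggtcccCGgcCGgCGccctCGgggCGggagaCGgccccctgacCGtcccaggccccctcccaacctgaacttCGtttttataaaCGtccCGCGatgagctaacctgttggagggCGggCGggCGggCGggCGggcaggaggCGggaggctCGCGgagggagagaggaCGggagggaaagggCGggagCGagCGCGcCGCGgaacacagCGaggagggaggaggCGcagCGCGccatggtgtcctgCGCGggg
Pou5f1, chr17:35505782-35506081, plus strand: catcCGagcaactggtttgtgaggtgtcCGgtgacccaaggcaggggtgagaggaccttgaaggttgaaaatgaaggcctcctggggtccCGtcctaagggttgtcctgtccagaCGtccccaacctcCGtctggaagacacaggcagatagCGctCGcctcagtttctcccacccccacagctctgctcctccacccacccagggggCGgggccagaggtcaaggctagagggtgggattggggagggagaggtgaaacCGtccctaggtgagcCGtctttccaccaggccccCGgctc
Fgf4, chr7:144861136-144861435, plus strand: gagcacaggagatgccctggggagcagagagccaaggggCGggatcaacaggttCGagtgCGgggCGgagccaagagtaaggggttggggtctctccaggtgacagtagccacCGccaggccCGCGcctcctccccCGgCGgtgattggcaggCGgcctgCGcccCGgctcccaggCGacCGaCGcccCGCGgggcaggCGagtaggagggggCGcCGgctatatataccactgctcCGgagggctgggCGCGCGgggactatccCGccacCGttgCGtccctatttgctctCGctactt
Cdkn2a, the first listed, chr4:89294570-89294869, minus strand: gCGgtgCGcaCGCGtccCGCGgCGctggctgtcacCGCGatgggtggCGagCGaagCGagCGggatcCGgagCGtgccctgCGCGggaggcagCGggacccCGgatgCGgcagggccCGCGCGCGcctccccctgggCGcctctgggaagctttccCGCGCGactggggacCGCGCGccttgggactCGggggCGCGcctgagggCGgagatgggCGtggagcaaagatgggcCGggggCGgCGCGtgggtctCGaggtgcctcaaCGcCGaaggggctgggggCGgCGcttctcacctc
Cdkn2a, the second listed, chr4:89282143-89282442, minus strand: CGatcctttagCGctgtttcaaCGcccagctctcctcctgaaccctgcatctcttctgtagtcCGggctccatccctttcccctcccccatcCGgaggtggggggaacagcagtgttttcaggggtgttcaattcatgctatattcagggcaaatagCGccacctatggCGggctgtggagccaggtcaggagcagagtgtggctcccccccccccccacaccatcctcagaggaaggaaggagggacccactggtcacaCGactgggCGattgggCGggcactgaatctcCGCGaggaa

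The Hoxd13 promoter holds 37 CG in its 300 bases, and 5.58% of the 32851 promoters of the table hold as many or more. Fgf4 holds 28 (14.2% hold as many), and the first Cdkn2a promoter holds 45 (1.93%). Pou5f1 with 11 CG (41.4%) and the second Cdkn2a promoter with 12 (39.6%) lie closer to the median promoter, which holds 7. These counts describe the letters of GRCm38.p6 and were not matched to reads base by base.

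H3K27me3 domains were first sought that the EBs of all 3 lines share. A bin was taken as enriched at 3 or more times the median of its own library. XT67E1 EBs had 6236 enriched bins (2.52% of all autosomal bins), LF2 EBs 8405 (3.4%) and E14 EBs 8440 (3.41%). All 3 shared 4239 bins (1.71%). These shared bins made up 68.0% of the enriched bins of XT67E1 EBs, 50.4% of those of LF2 EBs and 50.2% of those of E14 EBs. A further 2615 bins were enriched in 2 lines and 5134 in 1 line. Most of the bins enriched in 1 line alone lay under the threshold in the others without a clear difference. Only 214 of them, 0.0866% of autosomal bins, were also 2-fold or more higher than both other lines with counting intervals that left out equality, of which 17 were high in XT67E1 EBs, 53 in LF2 EBs and 144 in E14 EBs.

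Shared bins covered chromosomes unevenly, with 3.23% of the bins of chromosome 11 and 2.88% of those of chromosome 8 at one end, and 0.875% of chromosome 16 and 0.887% of chromosome 14 at the other. Levels were not adjusted for the higher reads of chromosome 8 in XT67E1 and LF2 EBs, described below. Adjacent shared bins formed 2821 domains, which covered 42.39 Mb. Single bins made up 2022 of them, 65 spanned at least 50 kb, and 11 spanned at least 100 kb. Across all 247240 bins, Spearman's rho between EB libraries was 0.80 for XT67E1 and LF2, 0.76 for XT67E1 and E14, and 0.75 for LF2 and E14. The bins share depth and mappability between libraries, so these values describe the libraries only.

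The 4 Hox clusters, which encode homeobox transcription factors that pattern the body axis, lay under 4 of the longest shared domains. A domain on chromosome 7, described below, was as long as those of HoxA and HoxD, at 130 kb. The longest, 170 kb on chromosome 15 from 102730001 to 102900000, covers HoxC. Its mean level was 7.80 times the median in XT67E1 EBs, 9.13 times in LF2 EBs and 17.2 times in E14 EBs. The HoxB domain, 140 kb on chromosome 11 from 96110001 to 96250000, reached 8.64 times in XT67E1 EBs, 9.71 times in LF2 EBs and 18.1 times in E14 EBs. In both domains E14 EBs stood highest and XT67E1 EBs lowest.

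The HoxD domain, 130 kb on chromosome 2 from 74480001 to 74610000, includes Hoxd13 and reached 8.56 times the median in XT67E1 EBs, 8.97 times in LF2 EBs and 17.9 times in E14 EBs. The HoxA domain, 130 kb on chromosome 6 from 52100001 to 52230000, was the highest of the 4 in each line, at 9.61 times in XT67E1 EBs, 11.2 times in LF2 EBs and 21.5 times in E14 EBs. Each domain was longer than the span of the genes listed for it, 11 for HoxA, 9 for HoxB, 9 for HoxC and 10 for HoxD. These lists may not hold every gene of a cluster, so the domains were not compared with whole clusters. RefSeq spans from the first to the last gene listed are 105.514 kb for HoxA, 96.925 kb for HoxB, 115.726 kb for HoxC and 112.154 kb for HoxD, and all 12, 10, 12 and 12 bins over these genes were shared.

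**Figure D1:**
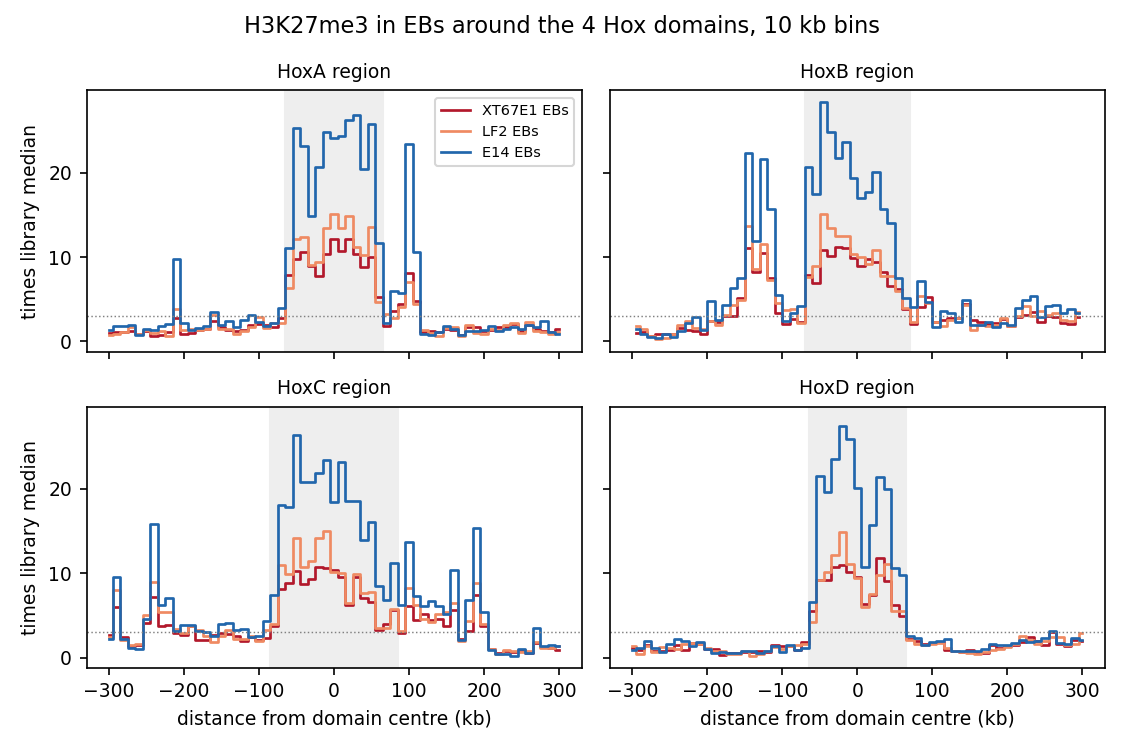
H3K27me3 level in 10 kb bins (times the library's median autosomal bin) against distance from the centre of each Hox domain (kb), for XT67E1, LF2 and E14 EBs, 1 library each. Grey bands mark the shared domain and the dotted line the threshold of 3 times; the 3 lines follow the same outline, with E14 highest in the bands.

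A peak beside the HoxA domain was present in the EBs of each line. In the bin 100 kb to the right of the HoxA domain's centre, the level was 8.14 times the median in XT67E1 EBs, 7.07 times in LF2 EBs and 23.4 times in E14 EBs. That bin lies in a 60 kb run on chromosome 6, from 52220001 to 52280000, that was, with 1 other run, the longest lower in LF2 EBs than in E14 EBs. The run held 91.4 RPM in LF2 EBs and 202.5 RPM in E14 EBs, a log2 ratio of -1.14 (interval -1.32 to -0.97), with 98.7 RPM in XT67E1 EBs. In undifferentiated cells the same run held 194.6 RPM in LF2 and 179.7 RPM in E14, a log2 ratio of 0.11. There the lower level in LF2 was seen in EBs and not in undifferentiated cells of the line. Over all shared bins the median log2 ratio of LF2 over E14 also fell, from 0.14 in undifferentiated cells to -0.35 in EBs. The part of the wider enrichment of the undifferentiated LF2 library in this run was not tested. The other 60 kb run, on chromosome 12 from 50460001 to 50520000, held 89.8 RPM in LF2 EBs and 198.4 RPM in E14 EBs, with 85.3 RPM in XT67E1 EBs. Its log2 ratio of LF2 over E14 was -1.14 in EBs and -0.47 in undifferentiated cells, so LF2 was lower in both conditions.

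Outside the Hox clusters, the other 6 of the 10 longest domains spanned 110 to 130 kb. The first of them, on chromosome 7 from 86640001 to 86770000, stood at 6.20 times the median in XT67E1 EBs, 7.15 times in LF2 EBs and 11.3 times in E14 EBs. The domain on chromosome 8 from 87220001 to 87340000 stood at 8.45 times in XT67E1 EBs, 9.82 times in LF2 EBs and 13.3 times in E14 EBs. The order XT67E1, LF2, E14 held in all 10 of the longest domains. Over the 64 domains of at least 50 kb that hold no bin very high in both marks, E14 EBs were highest in 59, LF2 EBs in 3 and XT67E1 EBs in 2. The median level of these domains was 5.76 times in XT67E1 EBs, 6.51 times in LF2 EBs and 8.92 times in E14 EBs.

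**Figure D2:**
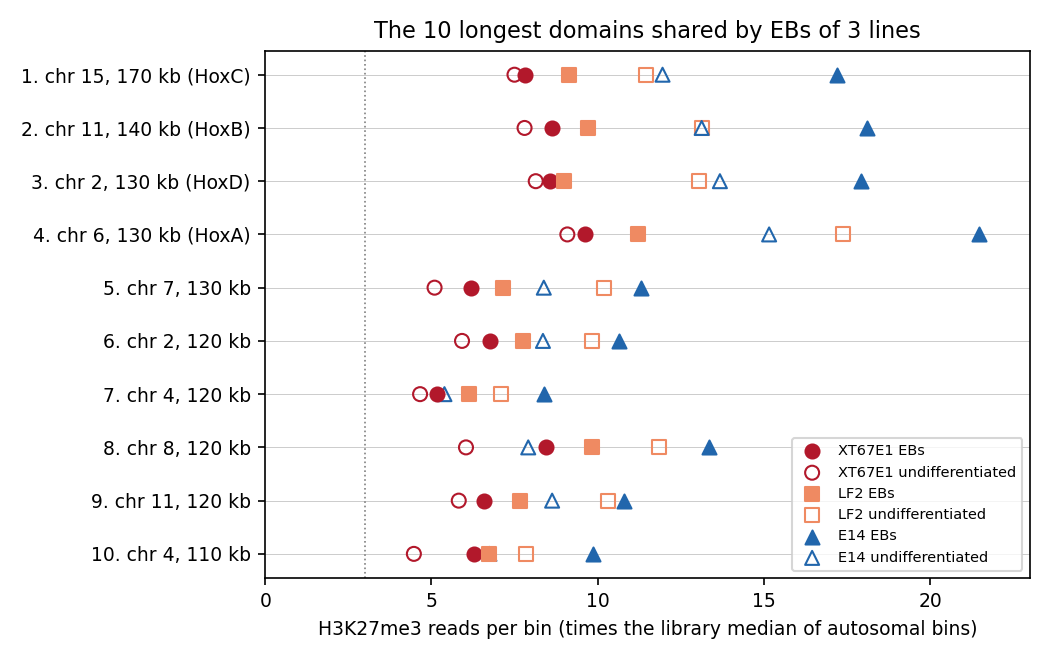
Mean H3K27me3 level (times the library's median autosomal bin) of the 10 longest domains shared by the EBs, with filled symbols for EBs and open ones for undifferentiated cells. The dotted line is the threshold of 3 times; E14 EBs lie highest in each of the 10 domains.

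Domains were also ranked by the level of the line lowest there, among those of 20 kb or more. The first and second of these, on chromosome 11 from 3020001 and on chromosome 9 from 3000001, also held H3K4me3 at 30.1 and 31.2 times its median in XT67E1 EBs. In all, 14 shared bins in 5 domains were at 10 or more times the median in all 8 libraries used, both marks included. The 64 long domains above leave out the 1 of at least 50 kb that holds such bins. The highest domains without such bins lay on chromosome 8 from 123580001, at 10.4 times in XT67E1 EBs, 10.8 times in LF2 EBs and 12.8 times in E14 EBs, and on chromosome 8 from 12380001, at 13.2 times in XT67E1 EBs, 10.3 times in LF2 EBs and 17.6 times in E14 EBs. At the place from 12380001, LF2 EBs were lowest. Between 3 and 80 Mb of chromosome 8, reads over E14 EBs were 1.47-fold in XT67E1 and 1.11-fold in LF2 EBs. Between 80 and 132 Mb they were 1.46-fold and 1.67-fold. Levels were not adjusted for this, and its part in the ranks and in the order of lines was not tested.

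Most shared bins were also marked in undifferentiated cells. At the same threshold, 83.7% of them were enriched in undifferentiated XT67E1 cells, 98.2% in LF2 and 82.7% in E14, against 3.30%, 7.64% and 2.46% of all bins. H3K4me3 was enriched in 20.7% of the shared bins in XT67E1 EBs and in 26.9% in undifferentiated XT67E1 cells, against 4.47% and 5.54% of all bins. All 4 Hox regions kept high levels in both conditions. Their EB over undifferentiated log2 ratios were 0.08 to 0.09 in XT67E1, -0.38 to -0.13 in LF2 and 0.29 to 0.40 in E14. LF2 EBs were therefore below their undifferentiated library at the clusters and E14 EBs above theirs, beside the wider enrichment of the undifferentiated LF2 library, whose part in this was not tested.

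The level of the shared bins differed between lines in one main way, a higher level in E14 EBs. The median shared bin stood at 4.29 times the median in XT67E1 EBs, 4.80 times in LF2 EBs and 6.13 times in E14 EBs, and the bin at the 90th percentile at 7.57, 8.60 and 14.4 times. E14 EBs were highest in 3201 shared bins (75.5%), LF2 EBs in 708 (16.7%) and XT67E1 EBs in 330 (7.78%). The shared bins took 7.45% of autosomal reads in XT67E1 EBs, 8.23% in LF2 EBs and 11.2% in E14 EBs.

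This difference grew with the level of the bin in EBs. The same EB libraries set the level classes, so part of this rise can be built in by the grouping. Over all bins tested, the median log2 ratio was 0.03 for XT67E1 over E14 EBs and 0.04 for LF2 over E14 EBs. In the 248 bins with a mean level over 11.7 times, it was -1.04 for XT67E1 over E14, -0.83 for LF2 over E14 and -0.20 for XT67E1 over LF2. In undifferentiated cells the same bins gave -0.90, -0.31 and -0.61. XT67E1 was thus low against E14 in both conditions, while LF2 was nearer to E14 before differentiation. How evenly the immunoprecipitation worked in each library cannot be seen in these files, and its part in the level was not tested.

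**Figure D3:**
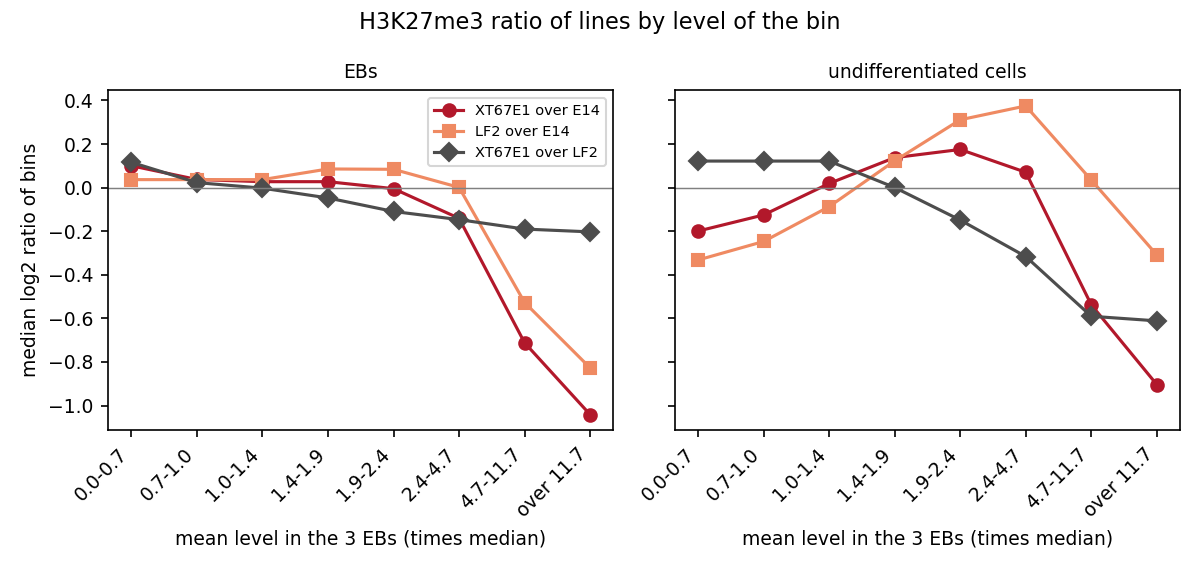
Median log2 ratio between lines (y) in bins grouped by their mean H3K27me3 level over the 3 EB libraries (x, times the median autosomal bin), for EBs on the left and undifferentiated cells on the right. In EBs the ratios of XT67E1 and LF2 over E14 stay near 0 in bins of low level and lie at -1.04 and -0.83 in the highest class.

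Lines were then compared bin by bin. Bins with at least 20 reads in a pair were called different at 2-fold or more, on counts plus 1 read, where the counting interval left out equality. Intervals were not adjusted for the number of bins, so some calls can come from counting error alone, and their share is not given here. XT67E1 EBs were higher than E14 EBs in 7999 of 220269 bins (3.63%) and lower in 4135 (1.88%). LF2 EBs were higher than E14 EBs in 6399 of 193160 bins (3.31%) and lower in 3765 (1.95%). XT67E1 EBs were higher than LF2 EBs in 4553 of 220273 bins (2.07%) and lower in 3144 (1.43%). The split depends on the scaling, because with background scaling 39.3% of the calls for XT67E1 over E14 were higher, in place of 65.9%, and for XT67E1 over LF2 35.5%, in place of 59.2%. Background scaling moved the median log2 ratio of those pairs to -0.11 and -0.12.

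Among the shared bins, 625 (14.7%) were lower and 3 were higher in XT67E1 EBs than in E14 EBs. LF2 EBs were lower than E14 EBs in 251 shared bins (5.92%) and higher in 5. Between XT67E1 and LF2 EBs, 1 shared bin was higher and 2 were lower. The undifferentiated libraries, which did not enter the calls, gave the same direction in 63.4% of the bins higher and 74.9% of those lower in XT67E1 than in E14 EBs, where 48.4% and 51.6% of all tested bins had it. For LF2 over E14 these shares were 66.4% and 65.6%, against 49.0% and 51.0% of tested bins. For XT67E1 over LF2 they were 62.8% and 52.0%, against 54.1% and 45.9%. Of the 7999 bins higher in XT67E1 than in E14 EBs, 2305 lay on chromosome 8. Its read density in undifferentiated XT67E1 over E14 cells was 1.51. Over all 4239 shared bins, called or not, the median undifferentiated log2 ratio was -0.36 for XT67E1 over E14. The shares were not computed without the bins of chromosome 8 or the shared bins, so they do not speak for single places.

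The bins higher in XT67E1 EBs than in E14 EBs gathered on chromosome 8. Those higher in LF2 EBs than in E14 EBs gathered on chromosomes 8 and 14. On chromosome 8, 19.2% of tested bins were higher in XT67E1 than in E14 EBs and 17.03% were higher in LF2 than in E14 EBs. On chromosome 14, 10.8% were higher in LF2 than in E14 EBs, and 3.71% in XT67E1. On the other autosomes the shares were 2.68% for XT67E1 and 2.03% for LF2. The read density per chromosome of XT67E1 over E14 EBs ranged only between 0.912 and 1.02 on those other autosomes, and that of LF2 over E14 EBs between 0.917 and 1.00.

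In 1 Mb windows, the excess in XT67E1 EBs ran along the whole of chromosome 8. XT67E1 over E14 EBs was 1.47-fold between 3 and 80 Mb, with all 74 windows above equality, and 1.46-fold between 80 and 132 Mb, with 51 of 52 windows above it. LF2 EBs had a smaller excess in the first part of the chromosome than in the second. LF2 over E14 EBs was 1.11-fold between 3 and 80 Mb, with 69 of 74 windows above equality, and 1.67-fold between 80 and 132 Mb, where all 52 windows lay above equality. On chromosome 14, LF2 over E14 EBs was 0.975-fold between 4 and 66 Mb, 1.52-fold between 66 and 122 Mb with all 56 windows above equality, and 0.753-fold between 122 and 126 Mb. The boundaries at 80, 66 and 122 Mb were set by least squares on the LF2 over E14 ratio in EBs, after these values had been seen, so the steps themselves are a description.

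The undifferentiated cells, which did not set the boundaries, showed the same sides. LF2 over E14 in undifferentiated cells was 1.12-fold between 3 and 80 Mb of chromosome 8 and 1.39-fold between 80 and 132 Mb. On chromosome 14 it was 0.947-fold between 4 and 66 Mb and 1.31-fold between 66 and 122 Mb. XT67E1 over E14 in undifferentiated cells had log2 ratios of 0.58 between 3 and 80 Mb of chromosome 8 and 0.60 between 80 and 132 Mb. XT67E1 EBs showed 1 shorter stretch on chromosome 14, with 8 windows in a row between 93 and 101 Mb above the central 95% of windows on the other autosomes. The log2 ratio of XT67E1 over E14 in this stretch was 0.47 in EBs and 0.55 in undifferentiated cells, and that of LF2 over E14 was 0.64 in EBs and 0.39 in undifferentiated cells. No DNA input library was analysed here, so the number of chromosome copies and the density of the mark cannot be told apart in these stretches.

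**Figure D4:**
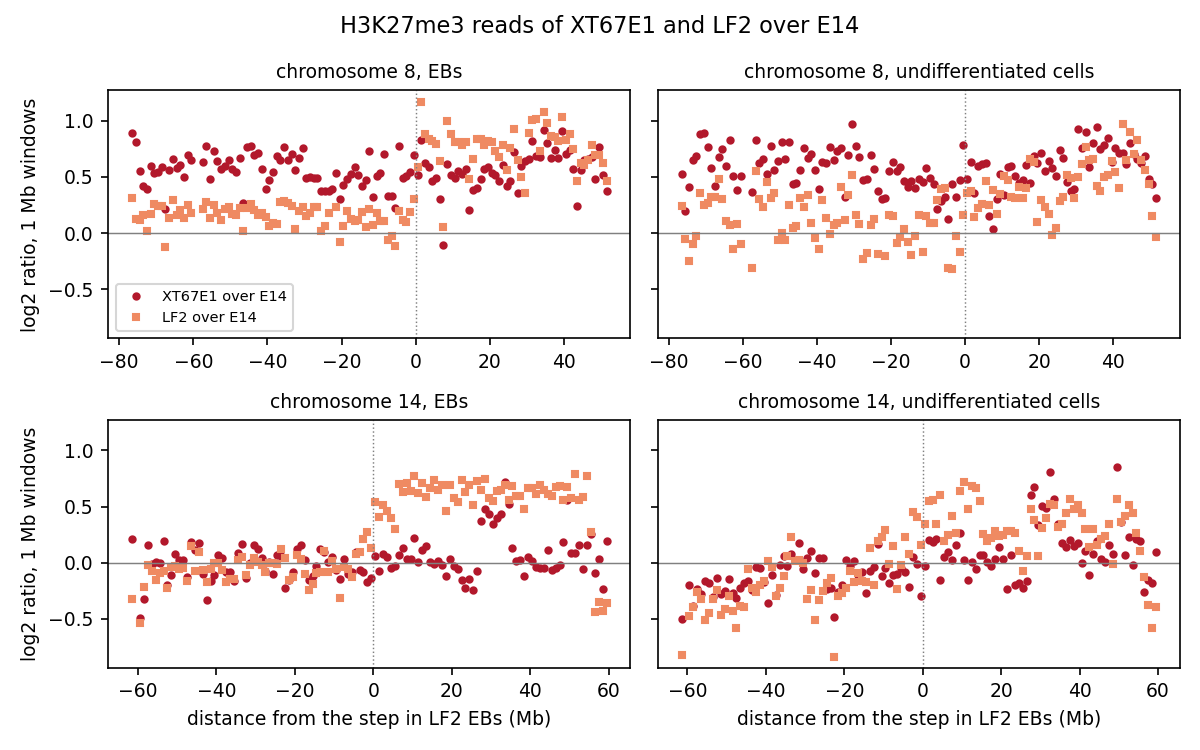
Log2 ratio of H3K27me3 reads in 1 Mb windows of chromosomes 8 and 14 for XT67E1 and LF2 over E14, in EBs on the left and undifferentiated cells on the right, against distance (Mb) from the boundary set in LF2 EBs. Each point is a window with at least 200 reads in the pair; on chromosome 8 both lines lie above 0 in most EB windows, with LF2 higher to the right of the dotted boundary, and on chromosome 14 LF2 EBs lie above 0 to its right.

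The longest runs of bins higher than in E14 EBs lay in these stretches. On chromosome 8 from 127750001 to 128090000, LF2 EBs held 320.9 RPM and E14 EBs 140.0 RPM, with 271.7 RPM in XT67E1 EBs. On chromosome 8 from 125370001 to 125630000, XT67E1 EBs held 170.4 RPM and E14 EBs 64.5 RPM, a log2 ratio of 1.40 (interval 1.22 to 1.59), with 123.4 RPM in LF2 EBs. In undifferentiated cells the log2 ratio of XT67E1 over E14 there was 0.49. All 3 of the longest runs lower in XT67E1 than in LF2 EBs lay on chromosome 14, between 88320001 and 108230000. The first of these, from 92860001 to 92970000, held 27.5 RPM in XT67E1 EBs and 54.5 RPM in LF2 EBs, with 30.8 RPM in E14 EBs.

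Bins that set E14 EBs apart from both other lines were then separated. Of 192233 bins with enough reads in all 3 pairs, E14 EBs were higher than both other lines in 846 (0.44%) and lower than both in 2237 (1.16%), of which 910 lay on chromosome 8. XT67E1 EBs were higher than both in 695 bins (0.362%) and lower in 443 (0.23%). LF2 EBs were higher than both in 665 bins (0.346%) and lower in 671 (0.349%). Of the 846 bins high in E14 EBs, 372 were enriched in E14 EBs, against 3.41% of all bins, and 192 were shared, against 1.71% of all bins. Of the 695 bins high in XT67E1 EBs, 19 were enriched there, against 2.52% of all bins, and of the 665 high in LF2 EBs, 53 were, against 3.4%. Each line's own EB library chose its bins, so these counts are a description.

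H3K4me3 in undifferentiated XT67E1 cells was enriched in 254 of the 846 bins high in E14 EBs (30.02%), against 6.54% of all bins tested. It was enriched in 8.06% of the bins high in XT67E1 EBs and 2.41% of those high in LF2 EBs. Among all shared bins, which have high H3K27me3 levels, it was enriched in 26.9%. Bins of like level were not compared, so whether the contrast with all bins tested is particular to E14 was not tested. In these 254 bins the median H3K27me3 level was 1.98 times in XT67E1 EBs, 2.27 times in LF2 EBs and 5.80 times in E14 EBs. In undifferentiated cells it was 1.29 times in XT67E1, 2.19 times in LF2 and 2.69 times in E14. H3K27me3 was called 2-fold higher in EBs than in undifferentiated cells in 24.0% of the 254 bins in XT67E1, 13.8% in LF2 and 41.3% in E14, against 7.60%, 3.89% and 4.00% of all bins with H3K4me3 enriched. The other 592 bins, without H3K4me3 enrichment, had medians of 0.786 times in XT67E1 EBs, 0.733 times in LF2 EBs and 1.93 times in E14 EBs. In them EBs were called higher than undifferentiated cells in 1.18% of bins in XT67E1, 0.676% in LF2 and 25.8% in E14, against 1.59%, 3.78% and 1.96% of all bins without H3K4me3 enrichment. Since the EB libraries chose these bins, the shares are a description only.

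The 6 regions that follow, 4 of them over genes known for the pluripotent state, were named after their values were seen and stand for no gene group. Pou5f1 lies in the bin of chromosome 17 from 35640001 to 35650000, which held 37 reads in XT67E1 EBs, 30 in LF2 EBs and 89 in E14 EBs, or 4.65, 6.96 and 20.1 RPM. Undifferentiated cells held 12 reads in XT67E1, 5 in LF2 and 6 in E14, or 1.496, 1.15 and 1.36 RPM. The log2 ratio in EBs was -2.09 for XT67E1 over E14 (interval -2.71 to -1.55) and -1.501 for LF2 over E14 (interval -2.18 to -0.92). H3K27me3 in this bin was low in undifferentiated cells of every line and higher in EBs of every line, with a log2 ratio of EBs over undifferentiated cells of 1.56 in XT67E1, 2.39 in LF2 and 3.68 in E14. H3K4me3 there stood at 47.8 RPM in XT67E1 EBs and 140.9 RPM in undifferentiated XT67E1 cells.

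Fgf4 lies in 2 bins of chromosome 7 from 152040001 to 152060000, with 9.30 RPM per bin in XT67E1 EBs, 14.7 in LF2 EBs and 29.4 in E14 EBs. Undifferentiated cells had 2.06 RPM per bin in XT67E1, 1.72 in LF2 and 5.55 in E14. Here too EBs exceeded undifferentiated cells in each line, with log2 ratios of 2.14 in XT67E1, 3.02 in LF2 and 2.38 in E14. Lefty1, a secreted inhibitor of Nodal signalling, lies on chromosome 1 from 182860001, where the level was 7.92 RPM in XT67E1 EBs, 12.3 RPM in LF2 EBs and 32.3 RPM in E14 EBs. The undifferentiated levels at Lefty1 were 3.49 RPM in XT67E1, 5.73 RPM in LF2 and 13.1 RPM in E14, so E14 was highest in both conditions.

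Sox2, a pluripotency factor that is also a neural one, lies in 2 shared bins of chromosome 3 from 34540001 to 34560000. They held 14.7 RPM per bin in XT67E1 EBs, 17.8 in LF2 EBs and 37.0 in E14 EBs, against 3.86, 6.30 and 8.95 in undifferentiated cells of these lines. Nanog, another core pluripotency factor, in 2 bins of chromosome 6 from 122650001 to 122670000, had low levels, with 3.96 RPM per bin in XT67E1 EBs, 3.71 in LF2 EBs and 5.77 in E14 EBs. Both intervals of the ratio to E14 EBs at Nanog included equality, so a difference was not detectable at this depth.

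Cdkn2a and its neighbour Cdkn2b, which encodes the inhibitor p15Ink4b, lie in 4 bins of chromosome 4 from 88920001 to 88960000. The region held 9.59 RPM per bin in XT67E1 EBs, 14.6 in LF2 EBs and 41.2 in E14 EBs, with log2 ratios of -2.10 for XT67E1 over E14 (interval -2.30 to -1.91) and -1.49 for LF2 over E14 (interval -1.71 to -1.29). Undifferentiated E14 cells were also highest, with 8.88 RPM per bin in XT67E1, 12.4 in LF2 and 23.9 in E14. For scale, shared bins had a median log2 ratio of -0.48 for XT67E1 over E14 and -0.35 for LF2 over E14, and 1 of the 4 bins here was shared. Its bin from 88940001 had the second lowest log2 ratio of XT67E1 over E14 EBs among named bins, at -2.63.

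**Figure D5:**
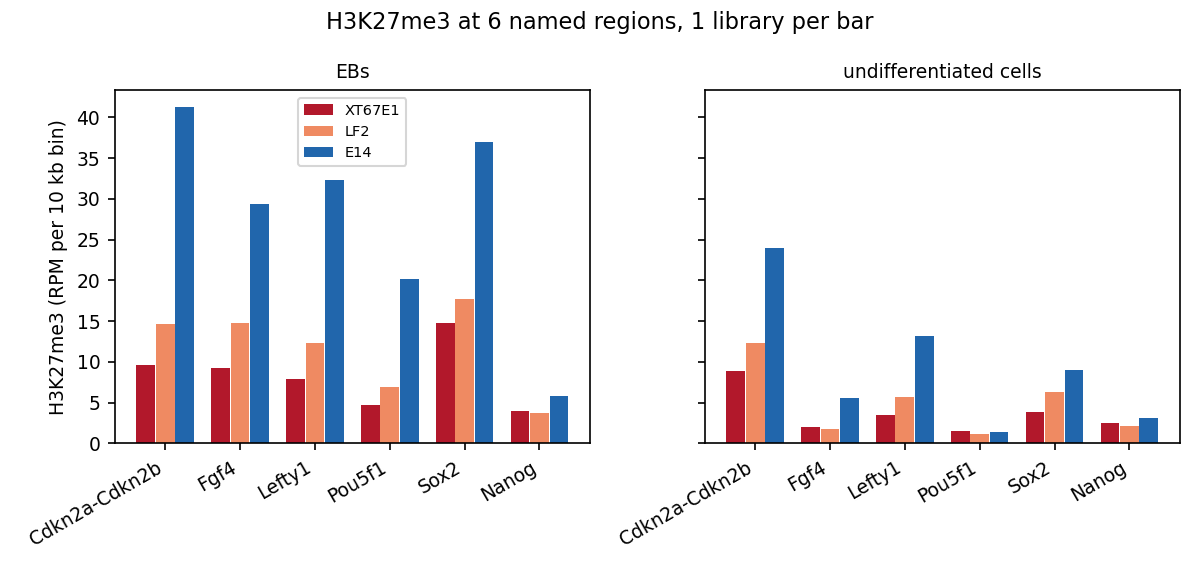
H3K27me3 level (RPM per 10 kb bin) at 6 named regions, for XT67E1, LF2 and E14 (bars from left to right, 1 library each), in EBs on the left and undifferentiated cells on the right. E14 EBs are highest at each region, and at Pou5f1 all undifferentiated libraries lie at 1.496 or below.

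Other bins lower in XT67E1 EBs than in E14 EBs carry no gene name here. Reads given from here on are raw counts. The XT67E1 libraries of H3K27me3 are deeper, so raw counts do not give the order of lines, which RPM and log2 ratios do. The lowest ratio was on chromosome 4 from 107890001, with 27 reads in XT67E1 EBs, 26 in LF2 EBs and 123 in E14 EBs, a log2 ratio of -2.99 for XT67E1 over E14 (interval -3.69 to -2.42) and -2.16 for LF2 over E14. The bin on chromosome 7 from 114350001 held 49 reads in XT67E1 EBs, 37 in LF2 EBs and 168 in E14 EBs, while undifferentiated cells held 15, 11 and 21. In RPM these were 6.16, 8.59 and 38.0 in EBs and 1.87, 2.52 and 4.76 in undifferentiated cells. The bin on chromosome 7 from 28110001 held 70 reads in XT67E1 EBs, 91 in LF2 EBs and 220 in E14 EBs, and undifferentiated cells 19, 20 and 28. At both places the EBs of every line were called higher than the undifferentiated cells, and E14 EBs were highest.

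Elsewhere E14 stood apart before differentiation too. On chromosome 11 from 120520001, XT67E1 EBs held 82 reads, LF2 EBs 94 and E14 EBs 243, and undifferentiated cells held 17 in XT67E1, 25 in LF2 and 133 in E14. On chromosome 4 from 82150001, the counts were 52 in XT67E1 EBs, 22 in LF2 EBs and 93 in E14 EBs, and 17, 20 and 87 in undifferentiated cells. The bin on chromosome 11 from 97490001 had the lowest ratio of LF2 over E14 EBs, -2.40 (interval -3.28 to -1.73), with 53 reads in XT67E1 EBs, 18 in LF2 EBs and 102 in E14 EBs. H3K4me3 in undifferentiated XT67E1 cells held 136, 116 and 113 reads in these 3 bins, where its median bin held 6.

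Among bins higher in XT67E1 EBs than in E14 EBs, the largest log2 ratio, 2.83 (interval 1.58 to 5.54) on chromosome 17 from 4260001, rests on 50 reads in XT67E1 EBs and 3 in E14 EBs, with 15 in LF2 EBs, and in undifferentiated cells the ratio was 0.28. Of the 5 bins named, 3 had XT67E1 over E14 past 2-fold in undifferentiated cells too. On chromosome 8 from 104170001, XT67E1 EBs held 49 reads, LF2 EBs 20 and E14 EBs 4, and undifferentiated cells held 65, 18 and 14. On chromosome 16 from 90430001, XT67E1 EBs held 79 reads, LF2 EBs 7 and E14 EBs 7, and undifferentiated cells held 49, 9 and 10. On chromosome 7 from 134750001, XT67E1 EBs held 147 reads, LF2 EBs 47 and E14 EBs 14, and undifferentiated cells held 207 in XT67E1, 131 in LF2 and 25 in E14. At this bin XT67E1 EBs stood at 5.25 times their median and LF2 EBs at 3.13 times, while E14 EBs stood at 0.933 times.

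The largest ratios of LF2 over E14 EBs lay on chromosomes 8 and 14. The first, on chromosome 8 from 112740001, had 63 reads in XT67E1 EBs, 49 in LF2 EBs and 7 in E14 EBs, a log2 ratio of 2.68 (interval 1.69 to 4.23) for LF2 over E14, and 90, 42 and 16 reads in undifferentiated cells. In RPM the EBs held 7.92, 11.4 and 1.58, and the undifferentiated cells 11.2, 9.62 and 3.63. Of the 5 bins named as lower in XT67E1 than in LF2 EBs, 3 lay on chromosome 14 and the others on chromosomes 4 and 5. On chromosome 5 from 37530001, XT67E1 EBs held 17 reads and LF2 EBs 38, a log2 ratio of -1.999 (interval -2.96 to -1.18), with 23 reads in E14 EBs. On chromosome 14 from 79640001, XT67E1 EBs held 30 reads and LF2 EBs 65, with 23 in E14 EBs, and undifferentiated cells held 65 in XT67E1, 49 in LF2 and 19 in E14. In RPM these were 3.77, 15.1 and 5.20 in EBs and 8.10, 11.2 and 4.31 in undifferentiated cells. On chromosome 4 from 13780001, XT67E1 EBs held 41 reads, LF2 EBs 80 and E14 EBs 33, while undifferentiated E14 cells held 102, the highest of the 3 lines. In RPM the EBs there held 5.16, 18.6 and 7.47. No bin was without reads in both libraries of 1 line and above the minimum of 20 in both other EBs.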

How the data were processed

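H3K27me3 ChIP-seq reads of EBs of 3 lines were analysed, with undifferentiated cells and the H3K4me3 of XT67E1 beside them. Of the 10 libraries, the 2 of retinoic acid-treated cells were not used. Groups were taken from the sample labels, 1 library per group. Per the labels' protocols, chromatin was fixed with formaldehyde, sheared by sonication and sequenced on Illumina Genome Analyzers. The authors deposited lists of read positions, which hold no value per row. Each row is 1 interval of 200 bp with no strand, and no interval occurs more than once in a file. Coordinates are mm9, per the submitters' processing notes, and are counted from 1. For the aligner and the filters: not given in the sources used here. The files held 8380007 reads for each XT67E1 H3K27me3 library, 4531733 for each LF2 and E14 library and 2252395 for each H3K4me3 library, so strength of pull-down cannot be read from totals.

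Interval midpoints were counted in 10 kb bins of chromosomes 1 to 19 and scaled to autosomal reads. Ratios were taken on counts plus 1 read in bins with at least 20 reads in the pair. A bin was called at 2-fold or more where an exact conditional binomial 95% interval, of counting error only, left out equality. With no replicates there was no test across samples. The call rule was tested on simulated data. Named bins were, per pair and direction, the 5 largest ratios with at least 50 reads in the pair, and the 3 longest runs. Named domains were the 10 longest and the 10 highest of at least 20 kb. The members, lists and rules were chosen with earlier results of these data known. The planned gene lists could not be placed without an mm9 annotation and are not analysed here. Alternatives were other read minimums, pseudocounts, scalings, bin sizes, thresholds, XT67E1 reads thinned to the number of the LF2 library, leaving out each line, and leaving out chromosomes 8 and 14. Scaling by the trend of bins of like level, and leaving out bins very high in both marks, were added after seeing the data. Python 3.11.15, numpy 2.4.6, scipy 1.17.1, pandas 2.3.3 and matplotlib 3.10.9 were used.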

Additional observations from a re-analysis of the deposited data

Results flagged for a closer look

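A few named places had EBs above undifferentiated cells in 1 line and below in another, with counting intervals that left out equality on both sides and a gap of at least 1 on the log2 scale. The difference between lines was not tested, since each line has 1 library per condition. Apart from the shared domain on chromosome 8, the places were named for differences between the same EB libraries. That choice favours opposite values, so they are a description only. The values are log2 ratios of EBs over undifferentiated cells of the same line.

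The shared domain on chromosome 8 from 72400001 had 0.24 in XT67E1, -0.50 in LF2 and 0.67 in E14. A run beside HoxA on chromosome 6 from 52220001 had -1.09 in LF2 and 0.17 in E14. On chromosome 1 from 177260001 the values were 0.38 in XT67E1 and -0.88 in LF2. On chromosome 5 from 98620001, XT67E1 had -0.55, LF2 had -1.66 and E14 had 0.69. In these 4 places LF2 was the line furthest below its undifferentiated cells. The part of the wider enrichment of the undifferentiated LF2 library in this was not tested.

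On the distal part of chromosome 14, LF2 EBs lay above their undifferentiated cells. The run from 108120001 had 0.75 in LF2 and -0.39 in E14, and the run from 88320001 had -0.71 in XT67E1 and 0.56 in LF2. On chromosome 4 from 13780001 the values were 0.58 in LF2 and -1.60 in E14.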

How the results depend on the processing

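Under other pseudocounts, scalings and thinned XT67E1 reads, which can move the ratio of a named bin, all 140 recomputed ratios of the 30 named bins kept their direction and stayed past 2-fold. These bins were chosen for their large ratios and recomputed from the same libraries, so this outcome was largely set by the choice. The shares of bins moved more. With a pseudocount of 5 reads, the higher share was 0.925% for XT67E1 over E14, 1.90% for LF2 over E14 and 0.319% for XT67E1 over LF2, and the lower share of LF2 over E14 was 1.03%; 33.9% of the calls for XT67E1 over E14 and 19.5% of those for XT67E1 over LF2 were then higher. Background scaling gave 2.17% higher and 3.35% lower for XT67E1 over E14, and 1.25% and 2.28% for XT67E1 over LF2. A minimum of 50 reads gave 1.36% higher and 0.829% lower for XT67E1 over LF2. Calls at 3-fold gave 0.572% and 0.136% for XT67E1 over E14, 0.543% and 0.249% for LF2 over E14, and 0.302% and 0.101% for XT67E1 over LF2. Bins of 50 kb gave 0.654% and 0.279%, 0.780% and 0.136%, and 0.0931% and 0.154% for these pairs. Bins of 5 kb gave 2.98% lower for XT67E1 over E14 and 2.22% lower for XT67E1 over LF2. The pseudocount of 5 reads was added to raw counts before scaling, and the XT67E1 library is the deeper one. It moved the median log2 ratio from 0.03 to -0.11 for XT67E1 over E14 and from -0.01 to -0.14 for XT67E1 over LF2. For LF2 over E14, libraries of like depth, the median stayed at 0.04. Apart from the stricter fold, the cause of the moves in shares was not tested.

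The share of bins enriched in all EBs was 5.36% at 2 times the median and 0.870% at 4 times, and between 1.89% and 2.26% when 1 line was left out. The share enriched in 1 line only and also called higher than both other lines was 0.219% at 2 times the median, 0.303% in 5 kb bins, 0.00809% in 50 kb bins and 0.0542% without chromosomes 8 and 14. No paired analysis was possible between the lines because each has 1 EB library, and no result comes from a test across samples. Depth limits the LF2 and E14 values most, at 15 reads in the median bin.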
